A study of Rattus norvegicus with 67 samples.

Results

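Restriction of the diet was set against free feeding in 14 of the 67 libraries that the labels list. All 14 came from normal endometrium of BDII/Han rats on a high fat diet (HFD) and from sequencing batch 2. The members were chosen by labels alone, as 10 libraries with the intervention RES (diet restriction) and 4 with the intervention NO (none). Every rat gave 1 normal library. The rats were virgin females that received the HFD, with 60% of its energy as fat, from 3 months of age. RES rats ate it ad lib until 12 months and had restricted access to it from then until the study ended at 15 months, so as to lose weight. NO rats ate it ad lib throughout. The RES rats carried the numbers 2, 3, 4, 6, 8, 9, 10, 11, 12 and 14, and the NO rats 13, 15, 16 and 17. RES rats 2 and 9 had also given tumour libraries, which were not used. Most of these numbers occur again on other libraries. In batch 1, numbers 2, 3, 4 and 6 stand on rats of another diet (NC) and 8, 10, 11, 12 and 13 on HFD rats without intervention, and in batch 2, 14, 16 and 17 stand on rats given liraglutide. The batch 1 libraries of numbers 4, 6, 11 and 12 are of tumours. Whether a repeated number means the same animal is not given in the sources used here. Neither the cage nor the stage of the oestrous cycle of a rat is given there.

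The endometrium is the lining of the uterus. Its glands and stroma grow under ovarian oestrogen and differentiate under progesterone, and the tissue is rebuilt with every cycle. Adipose tissue makes oestrogen from androgens, and obesity raises circulating insulin and leptin, which act on the same tissue, so that body fat is an established risk factor for endometrial cancer. Restriction of food intake lowers body fat, insulin and insulin-like growth factor. BDII/Han rats develop endometrial adenocarcinoma spontaneously, and the normal tissue studied here therefore came from a tumour-prone strain.

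The measurement was the number of read pairs that the Kallisto pseudo-aligner assigned to each Ensembl transcript, called an estimated count. Kallisto divides read pairs among transcripts that share sequence, so the count of a single isoform is uncertain. Levels are given as CPM, the count relative to the total of its library, after scaling of the libraries by the median of ratios. The p-values measure the spread between rats. The transcripts carry Ensembl identifiers, which no table used here pairs with gene names. Results are therefore described across transcripts, 2 transcripts in each direction are named by identifier, and the labelled tissue was not checked against marker genes. No sequence of these transcripts was at hand. In bulk tissue, fewer cells of a type and less RNA per cell cannot be told apart.

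Total estimated counts were lower in the RES libraries on average. These are read pairs assigned to transcripts, and the number of reads sequenced per library was not at hand. The libraries of the NO rats held 17890498 to 18922772 estimated counts (median 18551578) and those of the RES rats 16185536 to 18426801 (median 17350520). The RES mean was lower by 1168254 counts (exact permutation test over rats, two-sided, p = 0.00799, adjusted p = 0.0180 over 3 such tests of libraries), although RES rats 3 and 6 lay within the NO range. With fewer counts, the RES libraries nevertheless showed more transcripts. At least 5 estimated counts were found for 19962 to 20490 transcripts in RES rats and for 19310 to 20114 in NO rats (difference of means 473.7, exact permutation p = 0.0120, adjusted p = 0.0180). The 100 most abundant transcripts of a library took 26.8% to 34.6% of its counts in NO rats and 22.7% to 29.1% in RES rats (difference of means -3.81 percentage points, exact permutation p = 0.0300, adjusted p = 0.0300). The last measure was added after the data were examined. None of the 3 passed without NO rat 13, 15 or 16, with the same adjustment (exact permutation tests). The adjusted p was then 0.0629 for the total and for the number of transcripts in each case, and 0.0699, 0.105 and 0.0769 for the share, whose difference was -2.40 without rat 15. That adjustment counts the measure added later. Before adjustment, p for the total was 0.0280, 0.0280 and 0.0210 without rats 13, 15 and 16 (exact permutation tests). For the number of transcripts it was 0.0420 in each case. The scaling factors were 0.798 to 0.996 in NO rats and 0.973 to 1.14 in RES rats.

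Diet restriction went with differences in a large share of the measured transcripts, in both directions and mostly of moderate size. Of 20120 transcripts tested, 5393 (26.8%) passed at an adjusted p under 0.05 by limma voom with the Benjamini-Hochberg method. Levels were higher in RES rats for 2352 (11.7%) and lower for 3041 (15.1%). At an unadjusted p under 0.05 the count was 7940 (39.5%). The median change was 1.76-fold among transcripts that rose and 1.65-fold among those that fell, and 62.1% of the former and 68.0% of the latter changed by less than 2-fold. At the other end, 226 transcripts rose and 293 fell by more than 4-fold (log2 fold change beyond 2), and 70 rose and 109 fell by more than 8-fold (beyond 3). Among all transcripts tested the log2 fold change had a median of 0.02, with 5th and 95th percentiles of -1.24 and 1.42, and a median standard error of 0.24. The smallest change that passed was 0.21 on the log2 scale.

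The balance of the directions rested on the scaling, since more transcripts rose than fell when libraries were scaled by their totals only (4725 higher and 1517 lower). That scaling moved the median log2 fold change of all transcripts from 0.02 to 0.26. Other tools gave like numbers. On rounded counts, edgeR's quasi-likelihood test called 5767 transcripts (28.7%), 2636 (13.1%) higher and 3131 (15.6%) lower. DESeq2 called 6717 (33.4%), 3220 (16%) higher and 3497 (17.4%) lower, and 5096 transcripts passed in all 3 tools, 2247 of them higher and 2849 lower. No transcript called by limma had the opposite sign in edgeR or in DESeq2.

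**Figure D1:**
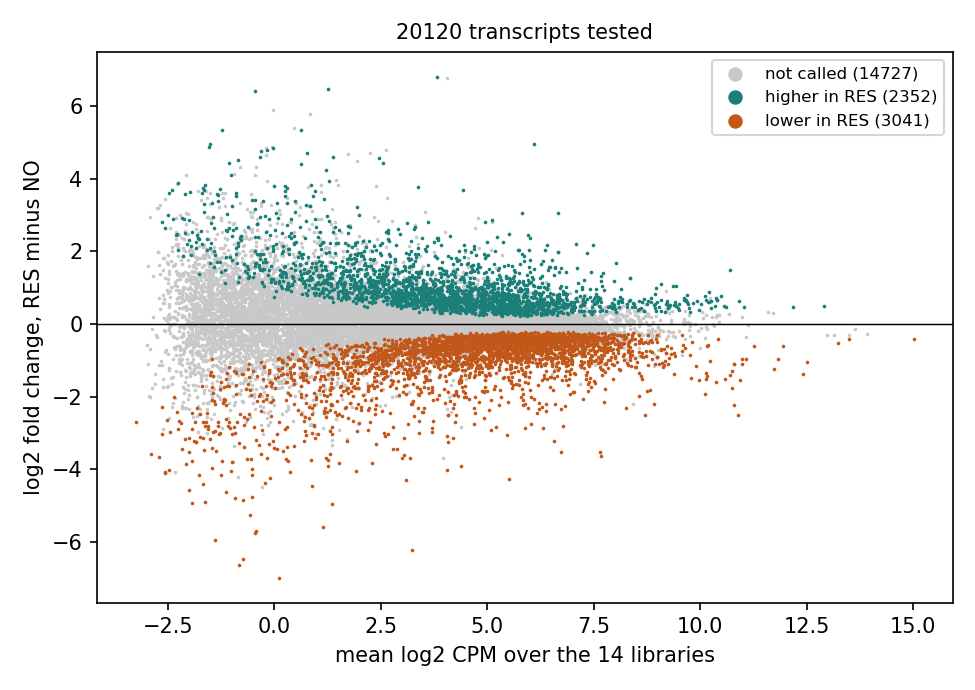
Log2 fold change (RES minus NO) of each of the 20120 transcripts against its mean log2 CPM over the 14 libraries. Transcripts called higher (2352) and lower (3041) lie on both sides at every level, and the changes beyond 4 on the log2 scale are mostly of scarce transcripts.

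The size of the change and its direction went with the level of the transcript. The share called was lowest among scarce transcripts, where the standard error was largest. Of the 2892 transcripts with a mean log2 CPM under 0, 5.26% rose and 5.43% fell, and the median standard error there was 0.68. Between 2 and 4 the shares were about even, at 13.1% higher and 11.6% lower of 4691 transcripts. From 6 to 8, 12.1% of 2573 transcripts rose and 29.6% fell. Among the 442 transcripts above 8, 21.0% rose and 34.8% fell. The median log2 fold change declined over these classes from 0.27 under 0 to 0.06 between 2 and 4, -0.13 between 6 and 8 and -0.21 above 8. When libraries were scaled by their totals only, the decline ran from 0.51 to 0.03, so that the negative median of the abundant classes turned positive. With total estimated counts as a term it ran from 0.13 to -0.07. The filter was uneven here, since it asked for 5 counts in 7 of the 14 libraries. A scarce transcript counted in RES rats alone could be tested, while one counted in the 4 NO rats alone could not. What part the filter has in the decline was not tested. Of the 100 transcripts with the highest mean CPM, 28 rose and 35 fell, against 11.7% and 15.1% of all 20120 tested.

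**Figure D2:**
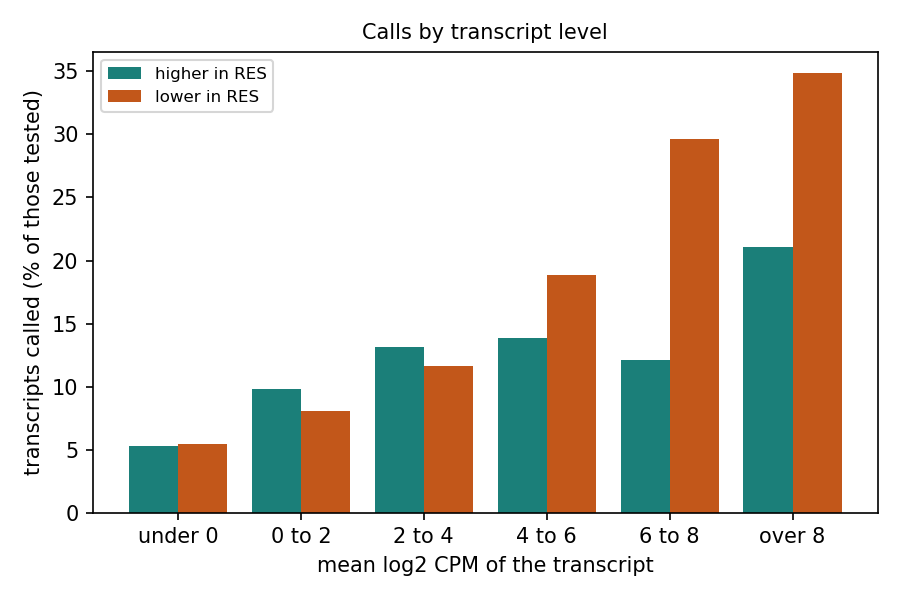
Share of tested transcripts called higher or lower in RES rats (%), in 6 classes of mean log2 CPM. The share called lower grows with each class, from 5.43% to 34.8%, while the share called higher is 5.26% in the lowest class, 12.1% to 13.8% in the 3 classes from 2 to 8 and 21.0% in the highest.

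The share called varied less with the length of the transcript. In 4 equal classes of annotated length, from 114 to 25658 bases, 10.2% to 12.7% of transcripts rose and 14.4% to 16.0% fell. Across the 20120 transcripts, which are not independent, the Spearman correlation of length with the log2 fold change was -0.022, against -0.161 for the mean log2 CPM. The median length was 2192 bases for transcripts called higher, 2142 for those called lower and 2132.5 for all that were tested.

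In many transcripts the groups did not overlap at all. For 2154 of 20120 transcripts (10.7%), every RES library lay on the same side of all 4 NO libraries, 1048 (5.21%) with RES above and 1106 (5.5%) with RES below. Of these, 2123 (10.6% of those tested) were among the calls, where they made up 43.6% of the transcripts that rose and 36.1% of those that fell. The other 31 did not pass the test. Of the 11595 transcripts not tested for low counts, 36 had at least 5 estimated counts in all 4 NO libraries and too few in RES to enter, and 170 had as many in 5 or 6 RES libraries and in no NO library.

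Of the 4 transcripts named here, 2 rose and 2 fell, and they had the lowest p-values among the 915 higher and 1043 lower ones that passed, did not overlap between the groups and had a mean log2 CPM of at least 1. Since they were chosen for this, that their groups do not overlap is no further result, nor is a low p in other fits to the same libraries.

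ENSRNOT00000014888.4, of 3644 bases, stood at 134, 119, 154 and 155 CPM in NO rats 13, 15, 16 and 17. In RES rats it ranged from 264 (rat 4) over a median of 331 to 385 CPM (rat 12). The lowest RES rat thus lay well above the highest NO rat, and the spread within each group was small beside the gap. The means were 141 ± 17.2 CPM (SD, n = 4) and 320.2 ± 37.4 CPM (SD, n = 10). The rise was 2.27-fold, with a log2 fold change of 1.19 (standard error 0.11, 95% interval 0.96 to 1.41, adjusted p = 5.09e-05 from limma).

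The second transcript that rose, ENSRNOT00000046598.6, of 3622 bases, was at 25.5, 28.6, 60.8 and 44.1 CPM in the same NO rats. RES rats had 118 (rat 6) to 190 CPM (rat 8), with a median of 150. Relative to their means both groups varied more than for the first transcript, and rat 6 was the RES rat nearest to the NO rats. The means were 39.7 ± 16.2 CPM (SD, n = 4) and 151 ± 27.3 CPM (SD, n = 10), a rise of 3.97-fold with a log2 fold change of 1.99 (standard error 0.21, 95% interval 1.55 to 2.43, adjusted p = 9.47e-05 from limma).

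ENSRNOT00000025794.4, of 2063 bases, had the smallest p of all transcripts. It was at 176, 259, 164 and 210 CPM in NO rats 13, 15, 16 and 17. RES rats ran from 56.5 (rat 10) over a median of 71.1 to 87.4 CPM (rat 6), so that the highest RES rat lay far below the lowest NO rat at 164. The means were 202 ± 42.4 CPM (SD, n = 4) and 71.5 ± 9.03 CPM (SD, n = 10). The level fell 2.80-fold, with a log2 fold change of -1.49 (standard error 0.13, 95% interval -1.76 to -1.22, adjusted p = 5.09e-05 from limma).

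The fall of ENSRNOT00000000011.5, of 2444 bases, was among the largest, at place 21 by size of the 3041 transcripts called lower. Its level was 89.1, 73.6, 101 and 42.1 CPM in NO rats 13, 15, 16 and 17, and 1.65 (rat 9) to 13.6 CPM (rat 6) in RES rats, with a median of 3.40. The transcript was still counted in every RES library, with 30 estimated counts in rat 10, the fewest, and 243 in rat 6, against 750 in NO rat 17 and 1667 in NO rat 16. Rat 6 again lay nearest to the NO rats and rat 17 nearest to the RES rats. The means were 76.5 ± 25.5 CPM (SD, n = 4) and 4.55 ± 3.65 CPM (SD, n = 10). The log2 fold change was -4.31, or 19.8-fold lower (standard error 0.37, 95% interval -5.11 to -3.51, adjusted p = 5.09e-05 from limma).

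In TPM, which correct for the length of a transcript and for the library total, the mean levels in NO and RES rats were 44.1 and 111 for ENSRNOT00000014888.4 and 12.7 and 52.6 for ENSRNOT00000046598.6. They were 114 and 45.7 for ENSRNOT00000025794.4 and 35.9 and 2.43 for ENSRNOT00000000011.5. On this scale ENSRNOT00000025794.4 was the most abundant of the 4 in NO rats and ENSRNOT00000014888.4 in RES rats.

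**Figure D3:**
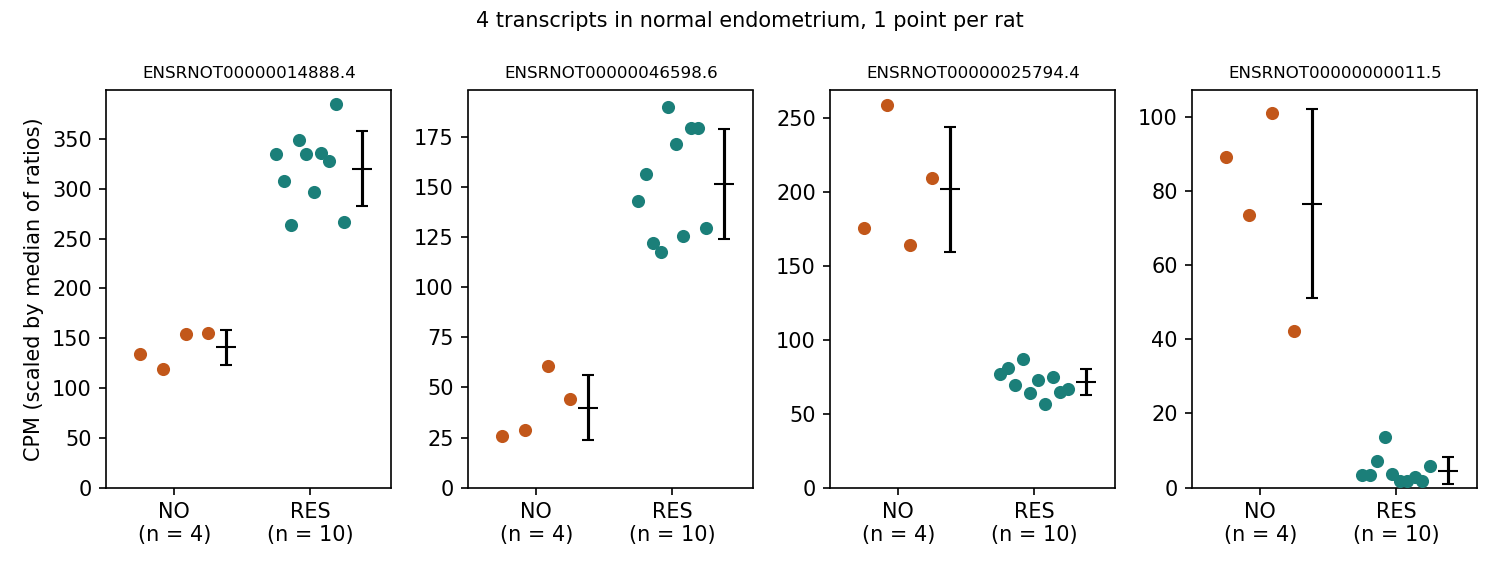
CPM of the 4 named transcripts in each rat, with 1 point per rat in the order of the rat numbers and the mean and SD of each group in black. In none of the 4 do the 10 RES rats overlap the 4 NO rats.

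The rats of a group were not all alike. Spearman correlations of log2 CPM between libraries had a median of 0.963 between RES rats (0.937 to 0.978), 0.952 between NO rats (0.928 to 0.962) and 0.925 between a RES and a NO rat (0.895 to 0.965). RES rat 6 was on average as close to the NO rats (0.953) as to the other RES rats (0.953), while each of the other 13 rats was closer to its own group. The first principal component held 25.2% of the variance. All NO rats had values of 45.2 to 112 on it, RES rat 6 had 33.6, and the other RES rats had -72.0 to -10.4. RES rats 2 and 9, which had also given tumour libraries, lay amid the others of their group, at -31.0 and -30.3. The second component, with 12.9%, set NO rats 13 and 17 (77.0 and 65.9) apart from NO rat 15 (-96.9). The typical spread of a transcript was about the same in both groups, with a median SD of log2 CPM of 0.38 within NO rats and 0.36 within RES rats.

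**Figure D4:**
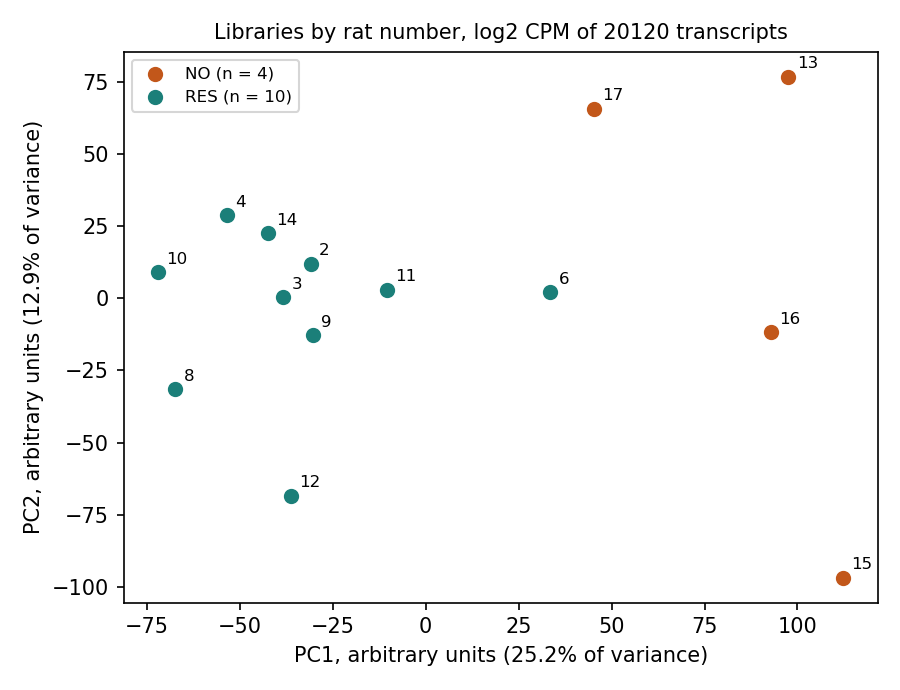
First and second principal component of log2 CPM over 20120 transcripts, with each library labelled by its rat number. The NO rats lie to the right, from 45.2 to 112 on the first component, and RES rat 6, at 33.6, is the RES rat nearest to them.

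Each rat was then set against calls in which it had no part. The fit was repeated on the other 13 rats, and for every transcript called there the position of the rat left out was read on a scale from 0, the mean of the other NO rats, to 1, the mean of the other RES rats. For 9 of the 10 RES rats, the level was nearer to the RES mean in 80.7% to 97.5% of 4654 to 5201 calls, with median positions of 0.85 to 1.28. RES rat 6 was nearer to its own group in 53.5% of 5922 calls, with a median position of 0.53, about midway. NO rats 13, 15 and 16 were nearer to the NO mean in 85.1%, 78.8% and 81.2% of 3778, 4063 and 3928 calls, with median positions of -0.01, 0.02 and 0.14. NO rat 17 was nearer to its own group in 56.5% of 5259 calls, with a position of 0.44. All 14 rats were thus nearer to their own group in over 50% of the calls, by a small margin in RES rat 6 and NO rat 17, whose median positions lay between the groups. RES rats 2 and 9 had positions of 0.98 and 1.00.

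At the ends of the RES group, the positions went with total counts. RES rats 10 and 8, with the fewest counts (16185536 and 16440134), lay farthest beyond the RES mean, at 1.28 and 1.17, and rat 6, with the most (18426801), lay nearest to the NO rats. Over the 10 RES rats, the position fell with total counts by Pearson's r of -0.697 (permutation p = 0.0189) but not clearly by Spearman's rho of -0.491 (permutation p = 0.157), and without rats 10 and 6, the 2 farthest from the median count, r was -0.227. The relation, the only one of its kind computed and chosen after the data were examined, thus rests on those 2 rats. RES rats 3, 9 and 12 had 17810141 to 18066300 counts, close to the 17890498 of NO rat 17, and positions of 0.92, 1.00 and 1.07, against 0.44 for rat 17. Rat 17 was the NO rat nearest to the RES rats and does not stand for NO rats at that count. Whether total counts account for the positions was not tested.

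**Figure D5:**
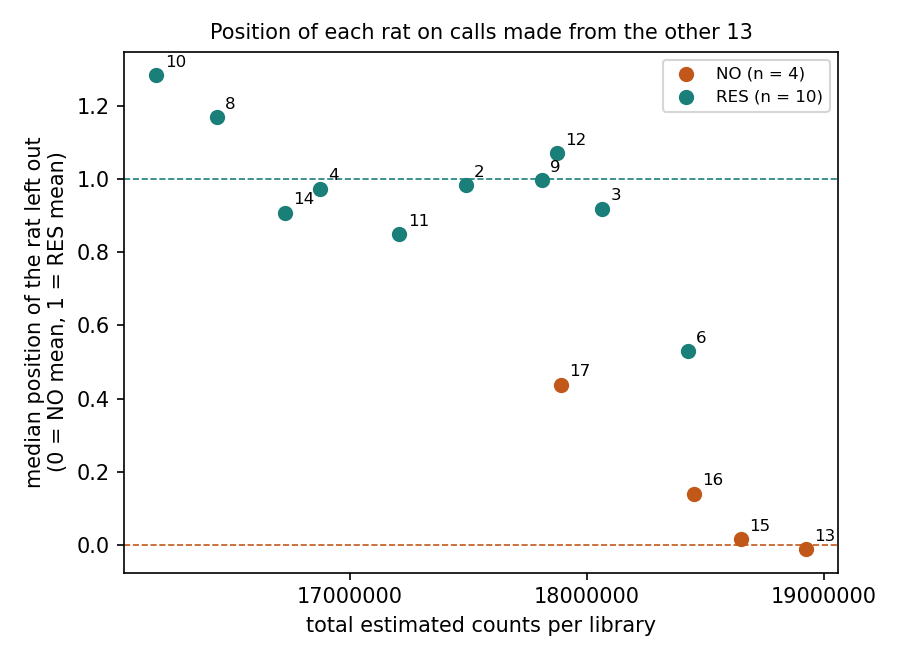
Median position of each rat on the calls made from the other 13 rats (0 is the mean of the NO rats, 1 that of the RES rats) against its total estimated counts. Most RES rats lie between 0.85 and 1.28, and RES rat 6 (0.53) and NO rat 17 (0.44) lie between the groups.

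With the log2 of total estimated counts as a term in the fit, 1061 transcripts passed (502 higher and 559 lower), 1024 of them among the 5393 and with the same sign. The term also widened the standard errors, by a median of 1.24 times, since counts and groups are related. All 4 named transcripts passed in that fit, with log2 fold changes of 1.22 for ENSRNOT00000014888.4, 1.94 for ENSRNOT00000046598.6, -1.29 for ENSRNOT00000025794.4 and -3.70 for ENSRNOT00000000011.5 (adjusted p = 0.00507, 0.00630, 0.00507 and 0.00630 from limma). With the 5 RES libraries of most counts (17490435 to 18426801, rats 2, 3, 6, 9 and 12) against all 4 NO libraries, 2509 transcripts passed, and with the 5 of fewest counts (16185536 to 17210604) 4567 passed. The former set held rat 6, whose median position was 0.53, and 5922 transcripts passed when rat 6 alone was left out. The 2 sets thus differed in more than their counts. What part total counts have in the other calls was not tested further.

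Without single rats the number of calls ran from 3778 without NO rat 13 to 5922 without RES rat 6, and the transcripts called higher fell from 2352 to 1439 without NO rat 13. Without any of the 3 rats whose numbers recur in the liraglutide group (14, 16 and 17), 3276 transcripts passed, 2992 of them among the 5393. That fit kept only 2 NO rats, 13 and 15, and what part the smaller group has in the lower number was not tested. Without RES rats 2 and 9, 4239 passed, 4143 of them among the 5393. Calls that did not hang on any single rat were still numerous. With each of the 14 rats left out in turn, 2860 of the 5393 transcripts passed every time and in the same direction, 1081 higher and 1779 lower. Of these, 955 also passed with total counts as a term, 427 higher and 528 lower.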

How the data were processed

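Polyadenylated RNA was sequenced as read pairs. The authors used BBDuk for trimming and Kallisto for quantification, against transcripts of Ensembl release 94 (Rnor_6.0). Rnor_6.0 and sleuth are named in the submitters' processing notes, and tool versions are not given in the sources used here. The labels name a stranded TruSeq kit and the methods describe both that kit and circularised libraries, and which holds for these 14 was not settled. For each transcript the authors deposited estimated counts, unscaled between libraries, and TPM, used for levels per length and 1 alternative. The effective length, 1 further column, was not used, and no values were read for 2 of the 67 listed samples. Of the other 65, 14 entered the comparison and the 12 normal liraglutide libraries 1 alternative, and the rest were not analysed here.

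Estimated counts of 14 libraries were fitted here with limma 3.58.1 (voom, robust empirical Bayes model) in R 4.3.3. A transcript was tested if 7 of the 14 libraries (47% or more) reached 5 counts. Scaling was by the median of ratios, and calls were made at an adjusted p under 0.05 over all transcripts tested. edgeR 4.0.16 and DESeq2 1.42.0 were run on rounded counts. Exact permutation tests of library measures over rats used scipy 1.17.1. Libraries differed far beyond sampling noise (lowest mean chi-square per transcript for any pair 18.4). On simulated data for this comparison (19803 transcripts, 50 changed at each fold), limma recovered 44% of 2-fold, 82% of 4-fold, 90% of 8-fold and 92% of 16-fold changes, with 7 unchanged transcripts called. The 200 changed transcripts were not taken from the scarcest, and each transcript was drawn independently of the others. In the data 26.8% of transcripts were called, so neither these rates nor the number of false calls carries over to them.

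Groups came from the labels. The comparison, the gene lists and the tests were chosen with earlier results of these data known. The gene lists and a fit per gene could not be used, for lack of gene names. The rule for naming transcripts then took 2 that rose and 2 that fell, by lowest p, with no overlap between groups and a mean log2 CPM not under 1.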

Additional observations from a re-analysis of the deposited data

Results flagged for a closer look

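In 22 groups of values, for libraries and for the named transcripts, a sample far from the others of its group was looked for, where chance gives about 1 in 20. Both that were found belong to RES rat 6. Its level was nearer to its own group in 53.5% of the calls made from the other 13 rats, where the next lowest RES rat had 80.7% (n = 10). For ENSRNOT00000000011.5 it had 13.6 CPM, where the next highest RES rat had 7.28 CPM (n = 10). This transcript was chosen for a difference between the groups, and the 2 values are not independent of each other.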

How the results depend on the processing

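The 5393 calls (2352 higher and 3041 lower) became 1061 with total counts as a term (502 and 559), 3276 without rats 14, 16 and 17 (1119 and 2157), and 2509 with the 5 RES libraries of most counts (1197 and 1312), an alternative chosen after the data were examined. The fit without rats 14, 16 and 17 kept only NO rats 13 and 15, and the 5 libraries of most counts included RES rat 6. Scaling by library size only gave 6242, as 4725 higher and 1517 lower. With each rat left out in turn, 3778 to 5922 were called, 1439 to 2654 of them higher and 2335 to 3268 lower. The other alternatives, among them 5309 calls with TMM scaling, 5203 with no filter, 4121 with the liraglutide libraries in the fit and 5842 without rats 6 and 17, stayed within 1.5 times of the reported number. Why these counts moved was not tested. The 4 named transcripts kept their direction and passed in all 30 alternatives, with log2 fold changes of 1.11 to 1.43 for ENSRNOT00000014888.4, 1.80 to 2.49 for ENSRNOT00000046598.6, -1.59 to -1.24 for ENSRNOT00000025794.4 and -4.78 to -3.70 for ENSRNOT00000000011.5. Over the alternatives their largest adjusted p was 0.00857 (from limma). As these transcripts were chosen by lowest p in the same libraries, their passing in refits of those libraries is no independent result. With each rat left out in turn, the difference in total counts was -1364460 to -1020370 and that in transcripts with at least 5 counts 348.5 to 616.5, and neither passed without NO rat 13, 15 or 16 (adjusted p = 0.0629 each, exact permutation tests). The share of the 10 most abundant transcripts did not pass (difference of -1.25 percentage points, exact permutation p = 0.138). No paired analysis was possible because the RES and NO rats share no number. With 4 NO rats the spread of that group is poorly known, and scarce transcripts, with a median standard error of 0.68 below a log2 CPM of 0, limit what can be seen there.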
